A study of Homo sapiens with 12 samples.

Results

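Heat shock chaperones of the cytosol were followed through 10 listed genes: the HSP90 genes HSP90AA1 and HSP90AB1, the HSP70 genes HSPA8, HSPA1A and HSPA1B, the co-chaperone genes DNAJB1, HSPH1 and BAG3, the small heat shock gene HSPB1, and HSF1, the factor that switches on heat shock genes. They were picked by name, but with earlier results of these data known. All 10 were found among the 20263 Ensembl genes of both tables. The study profiled mRNA in 2 established human colorectal cancer lines, HCT116 and RKO. In HCT116, 3 libraries with an overexpression construct of CKAP2L, a gene of the mitotic spindle (the HCT116 CKAP2L group), were set against 3 with empty vector (HCT116 vector). The RKO libraries were 3 with a hairpin RNA directed at CKAP2L (RKO shCKAP2L) and 3 with a negative control (RKO NC). No heat, drug or other stress is named in the labels of any group, and the sources used here do not say whether a line was a single clone or which hairpin was used.

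HSP90 and HSP70 are ATP-driven machines that fold, hold and remodel other proteins. J-domain proteins such as DNAJB1 hand clients to HSP70 and start its ATP cycle, HSPH1 and BAG3 help it release nucleotide and client, and small heat shock proteins such as HSPB1 hold unfolding proteins without ATP. HSP70 and HSP90 keep HSF1 inactive in unstressed cells; on stress HSF1 forms trimers and binds heat shock elements, which are inverted repeats of a short unit, in the promoters of chaperone genes. HSPA8 and HSP90AB1 are the constitutive forms of their families, and HSPA1A, HSPA1B and HSP90AA1 the more inducible ones. Cancer cells often carry high levels of these proteins.

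The promoters show where heat shock elements lie in these genes. RefSeq promoters (GRCh38.p14, the 250 bases before each annotated start) were searched on both strands for alternating units GAA and TTC with gaps of 2 bases. A run of 3 units reads GAANNTTCNNGAA or TTCNNGAANNTTC, and a run of 2 units reads GAANNTTC or TTCNNGAA, which every run of 3 also contains. A unit with any other letter was not counted, so no match says only that these letters are not in the window. Promoters were matched for 9 of the 10 genes, HSF1 not among them. A run of 3 units stood in 0.557% of all 27305 genes with a promoter, and a run of 2 or more in 14% of them. Among the 9 genes, 3 had a run of 3 units: HSPA8, HSP90AA1 and HSP90AB1. Only runs of 2 units stood in 4 further genes: HSPA1A, HSPA1B, DNAJB1 and HSPB1. HSPH1 and BAG3 had neither. The runs of 3 units are printed 5′ to 3′ on the gene's strand, with the run in capitals:
HSPA8, chr11:123062346-123062374, minus strand: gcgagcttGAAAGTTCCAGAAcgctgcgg
HSPA8, chr11:123062171-123062199, minus strand: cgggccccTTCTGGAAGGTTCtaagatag
HSP90AA1, chr14:102087112-102087140, minus strand: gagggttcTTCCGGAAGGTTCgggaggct
HSP90AB1, chr6:44247770-44247798, plus strand: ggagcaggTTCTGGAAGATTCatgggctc
HSP90AB1, chr6:44247823-44247851, plus strand: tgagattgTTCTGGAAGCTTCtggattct

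In HSPA8 the runs lay 230 to 218 and 55 to 43 bases before the start. In HSP90AA1 the run lay 88 to 76 bases before 1 of 2 annotated starts. In HSP90AB1 the runs lay 165 to 153 and 112 to 100 bases before 1 of 3 annotated starts. By GENCODE release 29 (GRCh38), the HSPA8 and HSP90AA1 windows overlap annotated exons, and the HSP90AB1 windows overlap none. The shorter runs of the other inducible genes are shown for comparison, since the near-identical pair HSPA1A and HSPA1B share theirs:
HSPA1A, chr6:31815429-31815452, plus strand: aaaccctgGAATATTCccgacctg
HSPA1B, chr6:31827625-31827648, plus strand: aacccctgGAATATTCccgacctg
DNAJB1, chr19:14518459-14518482, minus strand: gcggggcgGAAGGTTCtggagggg
DNAJB1, chr19:14518429-14518452, minus strand: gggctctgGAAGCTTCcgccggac
HSPB1, chr7:76302483-76302506, plus strand: taacgagaGAAGGTTCcagatgag

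Levels are in TPM, a gene's length-adjusted share of the transcripts in its library, which adds up to the same total in each. The targeted gene moved as labelled: CKAP2L was at 14.02 TPM with vector and 227 with the construct in HCT116, and at 24.9 TPM with NC and 7.99 with the hairpin in RKO. Between 14181 and 16684 genes were above 0 per library, and no library stood apart in this. The 13 mitochondrially encoded mRNAs took 28.0% to 28.6% of TPM with vector and 25.7% to 26.1% with CKAP2L in HCT116, and 20.4% to 22.5% with NC and 22.4% to 23.7% with shCKAP2L in RKO. As TPM is a share, this moves every other gene; values without these mRNAs are given where they end a call. Of 9 epithelial markers, 7 reached 1 TPM in HCT116, where their summed level was 7275 to 7666 TPM with vector and 6674 to 6745 with CKAP2L. In RKO 4 did, with summed levels of 198 to 209 TPM with NC and 149 to 158 with shCKAP2L, and CDH1 and CDX1 were at 0. The markers did not move together: in HCT116 the keratins KRT8 and KRT18 were lower and EPCAM, CLDN4 and CDH1 higher, though only 1 marker was higher under the other 3 scalings. In RKO KRT18 was lower, at 149.5 TPM with NC and 92.5 with shCKAP2L, and KRT8 and EPCAM were higher. Of 11 markers of immune cells, fibroblasts and endothelium, the defining immune genes PTPRC and CD3E were at or near 0 in every group. The summed level of the 11 was 72.9 to 78.9 TPM in HCT116 and 1032 to 1071 TPM in RKO. In RKO CD68, a lysosomal protein abundant in macrophages, was nearly all of it and CD14 was under 1 TPM. In HCT116 it was mostly COL1A1, a collagen gene, at 41.4 TPM with vector and 46.6 with CKAP2L, and CD68, at 31.3 and 27.7. COL1A1 was called higher there, but not after quantile normalization or without mitochondrial mRNAs. The part of these markers in the results was not tested. In bulk RNA, fewer cells that express a gene and less RNA per cell cannot be told apart.

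Together the 10 genes made up 3972 ± 61 TPM (SD, n = 3) in HCT116 vector, 3593 in HCT116 CKAP2L, 4922 ± 67 in RKO NC and 5026 in RKO shCKAP2L. With CKAP2L in HCT116 the sum differed from control by -9.54%, without overlap of the groups, and with the hairpin in RKO by 2.12%, with overlap. These sums are shares that include the mitochondrial mRNAs, whose own share in RKO was 20.4% to 22.5% with NC and 22.4% to 23.7% with shCKAP2L. The sum was not computed without these mRNAs, so its overlap in RKO does not show that it was unchanged. HSP90AB1 had the highest level and HSP90AA1 the second highest in every group, and HSPA1A the lowest. HSPB1 was the third highest in HCT116, and HSPA8 the third highest in RKO, where in the NC libraries it overlapped HSP90AA1. DNAJB1 and HSF1 overlapped in HCT116 vector; no other neighbours in the order overlapped in any group.

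Gene by gene, CKAP2L overexpression in HCT116 went with lower HSP90AA1, HSP90AB1 and HSPA8 and with small rises of DNAJB1 and HSPB1 that were lost under some settings (DNAJB1 under all 3 other scalings, HSPB1 under 2 of them). The hairpin in RKO went with lower HSPB1, BAG3, DNAJB1, HSPA1B and HSPA1A and with higher HSPH1, HSP90AB1, HSF1 and, by the smallest margin, HSP90AA1. By limma on log2(TPM + 1), with Benjamini-Hochberg adjustment over all genes tested and a call at an adjusted p under 0.05, 2 of the 10 were higher and 3 lower in HCT116. Over all 12732 genes tested there, 16.4% were called higher and 4.26% lower, 20.6% in all. After median-of-ratios rescaling the HCT116 calls over all genes were 1119 higher and 1203 lower, where the main scaling gave 2082 and 543. In RKO 4 were higher and 5 lower, beside 26.4% higher and 42.1% lower, 68.5% in all, of 11442 genes. The RKO count of 9 of 10 thus stands beside a background in which most genes were called, with a median size of 0.25 on the log2 scale among those called. The groups did not overlap for 5 of the 10 in HCT116, where 37.3% of all genes did not, and for 9 of the 10 in RKO, where 71.4% did not. The median log2 fold change of the 10 was -0.085 in HCT116 and -0.12 in RKO, beside 0.054 and -0.052 over all genes tested.

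**Figure D1:**
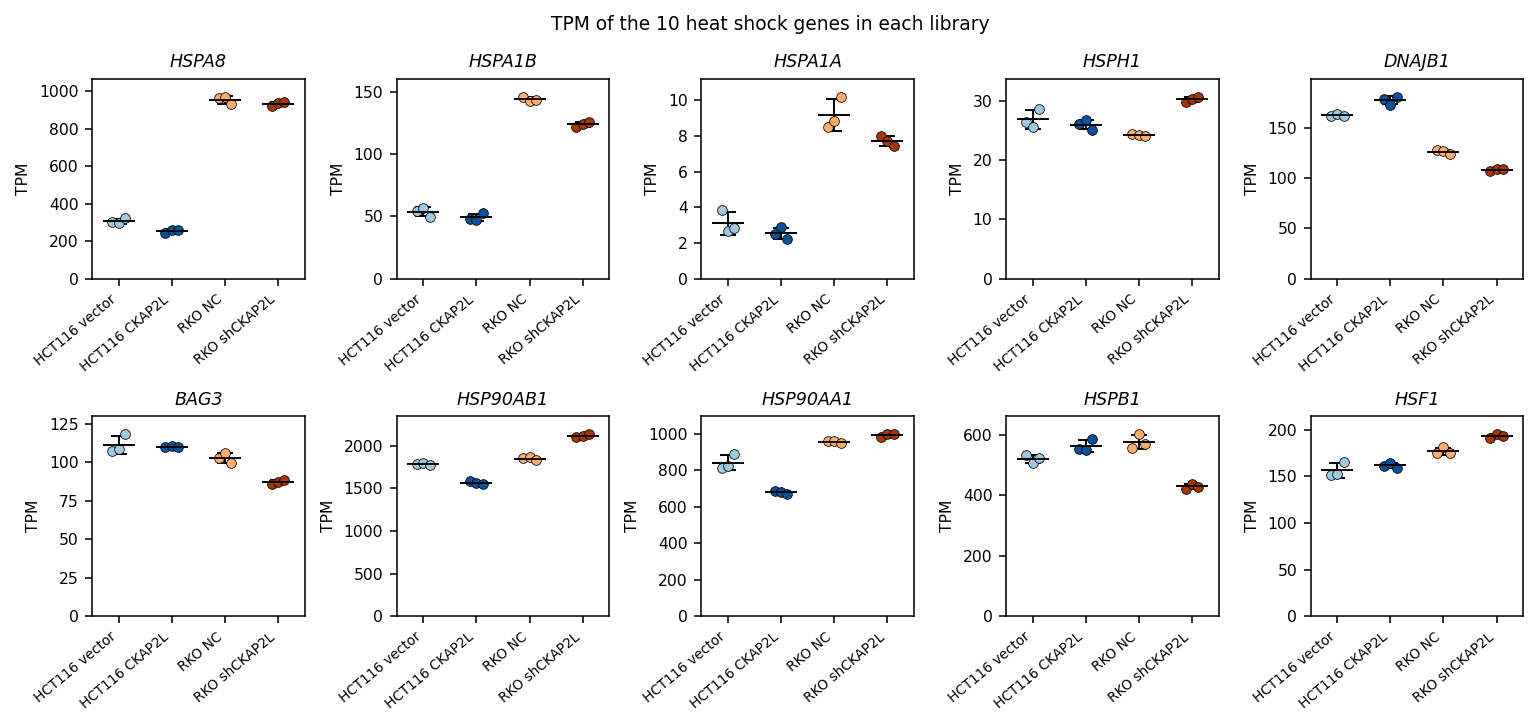
TPM (y axis, linear from 0, own scale per gene) of each of the 10 genes in the 12 libraries, by group (x axis); points are libraries, and the horizontal mark and bars are the mean and SD of 3. HSPA8 and HSPA1B sit several times higher in RKO than in HCT116, while HSP90AB1 falls with CKAP2L in HCT116 and rises with the hairpin in RKO.

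**Figure D2:**
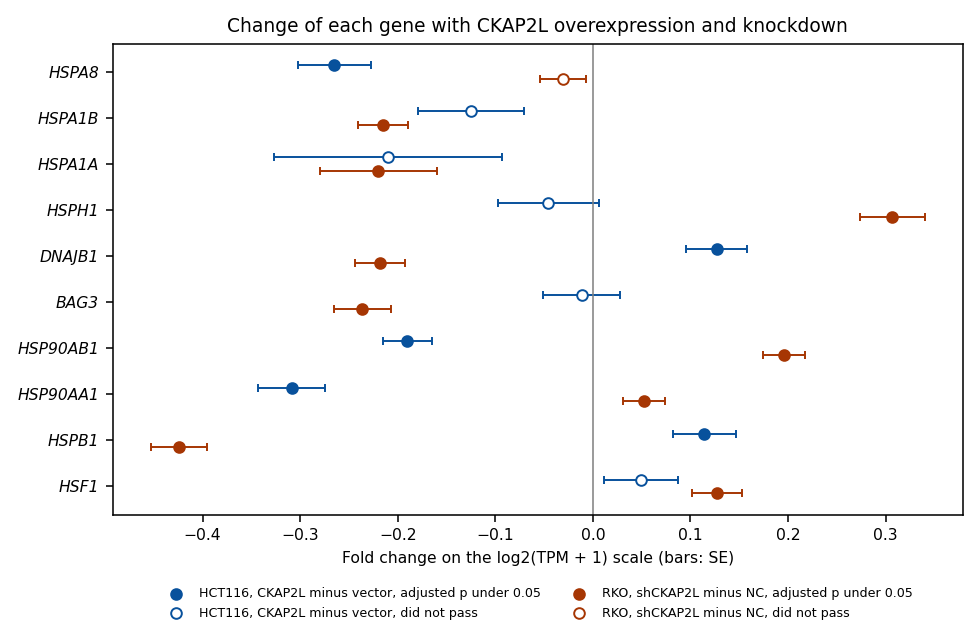
Fold change of each gene on the log2(TPM + 1) scale (x axis) with its SE, in HCT116 (CKAP2L minus vector, blue) and RKO (shCKAP2L minus NC, orange); filled points had an adjusted p under 0.05 by limma. HSP90AB1, HSP90AA1, DNAJB1 and HSPB1 are filled in both lines, on opposite sides of 0.

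HSP90AB1, the constitutive HSP90 (ENSG00000096384, GRCh38, plus strand of chromosome 6 from 44246166 to 44253888), was at 1781, 1801 and 1779 TPM in HCT116 vector and 1586, 1558 and 1555 TPM in HCT116 CKAP2L. Every CKAP2L library was below every vector library, and the mean fell by 12.4%. The log2 fold change was -0.19 ± 0.025 (SE; limma adjusted p = 0.000151). In RKO the gene was at 1854, 1864 and 1829 TPM with NC and 2106, 2116 and 2132 TPM with shCKAP2L. Every knockdown library was above every control, by 14.6%, with a log2 fold change of 0.20 ± 0.022 (SE; limma adjusted p = 9.98e-07). Both calls held in all 18 alternative settings.

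HSP90AA1, the stress-inducible HSP90 (ENSG00000080824, minus strand of chromosome 14 from 102080738 to 102139699), was at 814, 822 and 891 TPM in HCT116 vector and 688, 682 and 669 TPM in HCT116 CKAP2L. With CKAP2L it fell by 19.3%, without overlap, the largest change among the 5 genes called there. The log2 fold change was -0.31 ± 0.034 (SE; limma adjusted p = 3e-05), and -0.27 without the high vector replicate 3. The RKO libraries had 961, 961 and 948 TPM with NC and 982, 998 and 997 TPM with shCKAP2L. These groups did not overlap, but they differed by only 3.73%, a log2 fold change of 0.053 ± 0.022 (SE; limma adjusted p = 0.0406). Leaving out any one of the 6 libraries ended that call, with adjusted p from 0.0517 to 0.117. Within each library the ratio of HSP90AB1 to HSP90AA1 was 2.125 ± 0.11 (SD, n = 3) with vector and 2.305 ± 0.020 with CKAP2L. A common factor for all genes of a library cannot move this ratio, but quantile normalization can. In RKO this ratio was 1.93 ± 0.0065 (SD, n = 3) with NC and 2.13 ± 0.013 with shCKAP2L. The ratio was thus higher in the manipulated group of both lines, without overlap, although the levels themselves moved in opposite directions.

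HSPA8, the constitutive HSP70 known as HSC70 (ENSG00000109971, minus strand of chromosome 11 from 123057489 to 123063230), was at 302, 297 and 322 TPM in HCT116 vector and 245, 259 and 262 TPM in HCT116 CKAP2L. The groups did not overlap and the mean fell by 16.8% with CKAP2L. The log2 fold change was -0.26 ± 0.037 (SE; limma adjusted p = 0.000224), and -0.23 without vector replicate 3, the highest of the 6. HSPA8 in RKO was at 964, 969 and 931 TPM with NC and 922, 939 and 942 TPM with shCKAP2L. These groups overlapped and the difference of -0.031 ± 0.0235 on the log2 scale did not pass (SE; limma adjusted p = 0.255); it was positive under 2 scalings. Set side by side, the RKO NC level was 3.11 times the HCT116 vector level. The tables were scaled separately and the lines were not tested against each other.

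HSPA1A and HSPA1B (ENSG00000204389 and ENSG00000204388) encode the major inducible HSP70. They lie 9788 bases apart on chromosome 6 (31815464 to 31817946 and 31827735 to 31830255, plus strand). Their coding sequences of 1926 bases differed at 4 bases (99.8% identity). Of the 100-base windows along their GENCODE transcripts, 69.9% of HSPA1A and 72.7% of HSPA1B also occur in another gene, mostly each other. The sources used here do not say how reads with several matches were assigned, so the split between the copies is uncertain and their sum is given too. Of the other 8 genes, HSP90AA1, HSP90AB1 and HSPB1 shared 1.59% to 5.06% of windows, with pseudogenes, and 5 shared none.

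HSPA1B was listed at 54.5, 56.9 and 49.7 TPM in HCT116 vector and 47.7, 47.2 and 52.6 TPM in HCT116 CKAP2L. The groups overlapped and the log2 fold change of -0.125 ± 0.054 did not pass (SE; limma adjusted p = 0.118), though it did without vector replicate 3, the lowest of its group (-0.18, adjusted p = 0.016), and without mitochondrial mRNAs (-0.17, adjusted p = 0.0474). With NC in RKO it was at 146, 143 and 143 TPM, and with shCKAP2L at 122, 124 and 125 TPM. It fell by 13.9% without overlap (log2 fold change -0.215 ± 0.025, SE; limma adjusted p = 2.07e-06).

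HSPA1A was listed far lower, at 3.83, 2.66 and 2.83 TPM in HCT116 vector and 2.49, 2.88 and 2.23 TPM in HCT116 CKAP2L, which overlapped (log2 fold change -0.21 ± 0.12, SE; limma adjusted p = 0.219). Without the high vector replicate 1 the value was -0.088, and over single libraries left out it ran from -0.29 to -0.088. HSPA1A in RKO was at 8.48, 8.86 and 10.2 TPM with NC and 8.01, 7.69 and 7.45 TPM with shCKAP2L. It fell by 15.9% there, without overlap (log2 fold change -0.22 ± 0.060, SE; limma adjusted p = 0.00452). That call was lost with no filter on low values (adjusted p = 0.0842) and with all 12 libraries in 1 fit (adjusted p = 0.0546). The 2 copies summed to 56.8 ± 3.8 TPM (SD, n = 3) in HCT116 vector, 51.7 in HCT116 CKAP2L, 153 ± 1.2 in RKO NC and 132 in RKO shCKAP2L. The sum did not pass in HCT116 (log2 fold change -0.13 ± 0.052, SE; limma adjusted p = 0.0847) and fell in RKO by 0.22 ± 0.025 on the log2 scale (SE; limma adjusted p = 1.37e-06). The constitutive HSPA8 stood above the inducible sum in every library, by 4.78 to 7.11 times.

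DNAJB1, the main J-domain partner of inducible HSP70, also called HSP40 (ENSG00000132002, minus strand of chromosome 19 from 14514770 to 14529770), was at 162, 164 and 162 TPM in HCT116 vector and 179, 173 and 181 TPM in HCT116 CKAP2L. The groups did not overlap (log2 fold change 0.13 ± 0.031, SE; limma adjusted p = 0.0113). The adjusted p was 0.178 after median-of-ratios rescaling, 0.0533 after quantile normalization, 0.0929 without mitochondrial mRNAs and 0.0581 and 0.0576 without CKAP2L replicate 1 or 3. In RKO DNAJB1 was at 128, 127 and 124 TPM with NC and 107, 109.5 and 109 TPM with shCKAP2L. It fell by 14.2%, without overlap, and passed in all 18 settings (log2 fold change -0.22 ± 0.026, SE; limma adjusted p = 2.05e-06). Its level in RKO NC was 0.777 times that in HCT116 vector, the lowest such ratio of the 10 genes.

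HSPH1, an HSP110 that serves HSP70 as exchange factor and disaggregation partner (ENSG00000120694, minus strand of chromosome 13 from 31134974 to 31162388), was at 26.4, 25.55 and 28.6 TPM in HCT116 vector and 26.1, 26.7 and 25.1 TPM in HCT116 CKAP2L. These overlapped (log2 fold change -0.046 ± 0.052, SE; limma adjusted p = 0.572), and without vector replicate 3, the highest, the value was -9.36e-05. RKO held it at 24.4, 24.3 and 24.0 TPM with NC and 29.8, 30.2 and 30.6 TPM with shCKAP2L. It rose by 24.7% without overlap, the largest rise among the 10 (log2 fold change 0.31 ± 0.033, SE; limma adjusted p = 8.51e-07).

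BAG3, an exchange factor of HSP70 that also links it to small heat shock proteins and autophagy (ENSG00000151929, plus strand of chromosome 10 from 119651370 to 119677819), was at 107, 109 and 118 TPM in HCT116 vector and 110.1, 111 and 110.1 TPM in HCT116 CKAP2L. The groups overlapped (log2 fold change -0.012, limma adjusted p = 0.865). In RKO BAG3 was at 103, 107 and 99.99 TPM with NC and 86.2, 87.3 and 88.9 TPM with shCKAP2L. It fell by 15.3% without overlap (log2 fold change -0.24 ± 0.029, SE; limma adjusted p = 3.6e-06).

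HSPB1, also called HSP27 (ENSG00000106211, plus strand of chromosome 7 from 76302544 to 76304295), was at 534, 506 and 524 TPM in HCT116 vector and 555, 551 and 587 TPM in HCT116 CKAP2L. It was 8.25% higher without overlap (log2 fold change 0.11 ± 0.032, SE; limma adjusted p = 0.0235). The rise passed after quantile normalization (0.099, adjusted p = 0.0332). The adjusted p was 0.357 after median-of-ratios rescaling, 0.179 without mitochondrial mRNAs, 0.0921 without vector replicate 2, and 0.0553 and 0.117 without CKAP2L replicate 1 or 3. In RKO HSPB1 was at 559, 602 and 572 TPM with NC and 422, 439 and 428 TPM with shCKAP2L. It fell by 25.5% without overlap, the largest change among the 10 in either line (log2 fold change -0.42 ± 0.028, SE; limma adjusted p = 3.67e-09), and the call held in all 18 settings.

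HSF1 itself (ENSG00000185122, plus strand of chromosome 8 from 144291591 to 144314722) was at 151, 153 and 165 TPM in HCT116 vector and 161, 165 and 159 TPM in HCT116 CKAP2L. The groups overlapped and the log2 fold change of 0.049 did not pass (limma adjusted p = 0.375), though without vector replicate 3 it was 0.089 (adjusted p = 0.0312). HSF1 in RKO was at 175, 181 and 175 TPM with NC and 191, 195 and 194 TPM with shCKAP2L. It rose by 9.23% without overlap (log2 fold change 0.13 ± 0.025, SE; limma adjusted p = 0.000384). These are mRNA levels, and HSF1 is mainly controlled as a protein.

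With both comparisons read toward more CKAP2L (CKAP2L minus vector in HCT116, NC minus shCKAP2L in RKO), the change itself was compared between the lines in 1 limma fit of the 12 libraries. Line and kind of manipulation cannot be told apart in it. The changes differed for 8 of the 10 genes, beside 54.5% of all 11024 genes tested: 6 negative, beside 27% of all, and 2 positive, beside 27.6%. On the log2 scale the change was lower in HCT116 than in RKO for HSPA1A (-0.43), HSPA1B (-0.34), HSPB1 (-0.31), HSPA8 (-0.30), HSP90AA1 (-0.26) and BAG3 (-0.25). For HSPH1 (0.26) and HSF1 (0.18) it was higher. Toward more CKAP2L, HSPA1A, HSPA1B, HSPA8 and BAG3 were below 0 in HCT116 and above 0 in RKO, and HSF1 the reverse. Each of these genes was called in only 1 of the lines. HSPA1A and HSPA1B are the near-identical copies whose split is uncertain, and their sum was not compared between the lines. The differences of HSP90AB1 and DNAJB1 did not pass. For HSP90AB1 the difference was 0.006 ± 0.032 (SE; limma adjusted p = 0.891): its level was lower with more CKAP2L in both lines, by sizes given above. After quantile normalization that difference was -0.082 (adjusted p = 0.0246). For DNAJB1 it was -0.091 ± 0.0385 (SE; limma adjusted p = 0.0526), and it passed in 6 of 22 alternatives. Called in both lines with opposite signs, and so on 1 side with respect to CKAP2L, were 4 of the 10: HSP90AB1 and HSP90AA1, lower with more CKAP2L, and DNAJB1 and HSPB1, higher. Over all 11023 genes tested in both lines, 15.8% were called in both, 8.26% with opposite signs and 7.56% with equal signs; none of the 10 was called with equal signs. Among these calls, those of DNAJB1 and HSPB1 in HCT116 and of HSP90AA1 in RKO did not hold in every setting, as given above.

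Ratios within a library set the opposed genes side by side. HSP90AB1 stood 3.43 ± 0.11 times above HSPB1 (SD, n = 3) in HCT116 vector and 2.78 ± 0.11 times in HCT116 CKAP2L. In RKO the ratio was 3.20 ± 0.11 (SD, n = 3) with NC and 4.93 ± 0.095 with shCKAP2L. Against DNAJB1, HSP90AB1 stood at 11.0 ± 0.027 (SD, n = 3) with vector and 8.81 ± 0.19 with CKAP2L, and at 14.6 ± 0.087 with NC and 19.5 ± 0.17 with shCKAP2L. Both ratios were lower with overexpression and higher with knockdown, without overlap in either line. Their direction follows from the opposite changes of these genes given above, so it is no separate result. HSPA8 stood at 1.89 ± 0.096 times DNAJB1 (SD, n = 3) with vector and 1.44 ± 0.064 with CKAP2L, and at 7.55 ± 0.0625 with NC and 8.60 ± 0.026 with shCKAP2L, the same pattern. The HSPA8 to DNAJB1 ratio was also several times higher in RKO than in HCT116, since HSPA8 was higher and DNAJB1 lower. HSPA8 over HSPH1 had another pattern: it was 11.4 ± 0.18 with vector and 9.84 ± 0.54 with CKAP2L (SD, n = 3 each), and lower with knockdown too, at 39.4 ± 0.61 with NC and 30.9 ± 0.15 with shCKAP2L.

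**Figure D3:**
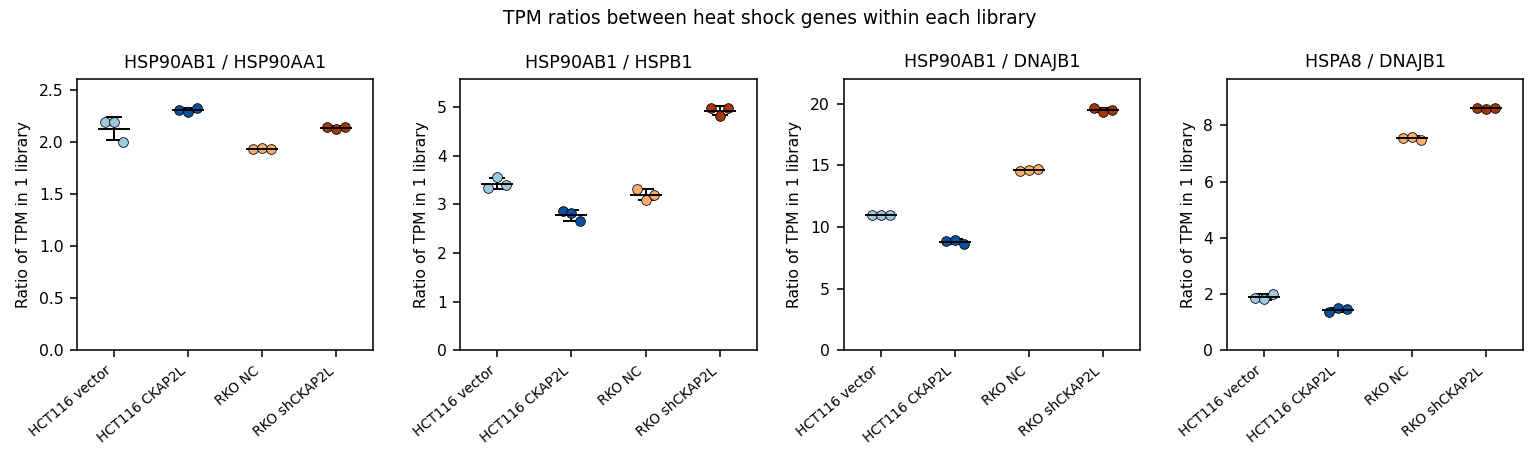
Ratio of TPM between pairs of heat shock genes within each library (y axis, linear from 0) by group (x axis); points are libraries, the horizontal mark and bars the mean and SD of 3. HSP90AB1 over HSPB1 is 3.43 with vector and 2.78 with CKAP2L in HCT116, and 3.20 with NC and 4.93 with the hairpin in RKO.

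The genes that work with these chaperones were counted from 10 lists, which share some genes and hold 96 different ones. Of these, 87 were tested in HCT116 and 85 in RKO, each counted once. In HCT116, 15 were higher (17.2%) and 14 lower (16.1%), beside 16.4% and 4.26% of all genes. The HCT116 count of lower genes depended on the setting. It was 20, 19 and 17 under median-of-ratios rescaling, quantile normalization and without mitochondrial mRNAs, with 13 higher in each. After median-of-ratios rescaling 23.0% of the listed genes tested were lower, beside 9.45% of all genes. After quantile normalization and without mitochondrial mRNAs 21.8% and 19.3% were lower, beside 8.88% and 7.34%. The higher shares under these scalings were 14.9%, 14.9% and 14.8%, beside 8.79%, 8.66% and 8.87%. With an untrended prior variance 6 were lower (6.9%), beside 2.1% of all genes. With no filter on low values 5 were lower (5.21%), beside 1.09%. Without CKAP2L replicate 1, 2 or 3 the lower count was 8, 9 and 8 (9.2%, 10.3% and 9.3%), beside 2.33%, 2.47% and 2.57%. The count of higher genes was 24 (27.6%) without vector replicate 3, beside 22.4% of all genes. It was 23 (26.4%) with all 12 libraries in 1 fit, beside 23.6%. In RKO, 20 were higher (23.5%) and 49 lower (57.6%), beside 26.4% and 42.1%. After median-of-ratios rescaling 26 were higher (30.6%) and 40 lower (47.1%), beside 33.2% and 36.7% of all genes. With no filter 13 were higher (13.5%) and 43 lower (44.8%), beside 14.2% and 20.8%. The lists were chosen with earlier results of these data known, and no list was tested as a set.

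The HSP90 co-chaperones were lower in part in both lines. In HCT116, 3 of 14 were lower and none higher (median log2 fold change -0.020), beside 4.26% and 16.4% of all genes. The 3 lower were CDC37, which brings kinases to HSP90 (-0.11), FKBP4 (-0.10), an immunophilin of steroid receptor complexes, and STIP1 (-0.10), which bridges HSP70 and HSP90. Their limma adjusted p were 0.0229, 0.0417 and 0.0469. In RKO, 9 of 14 were lower and 3 higher (median -0.11), beside 42.1% and 26.4% of all genes. Under the other 3 scalings 3 or 4 were lower in HCT116, and 7 or 8 in RKO. FKBP4 was among the 3 higher in RKO (log2 fold change 0.10, limma adjusted p = 0.00303), against its fall in HCT116. CACYBP fell by 0.37 ± 0.031 on the log2 scale (SE; limma adjusted p = 4.84e-08), CDC37 by 0.35 ± 0.0255, CHORDC1 by 0.31 ± 0.034 and AHSA1, the activator of the HSP90 ATPase, by 0.21 ± 0.025. In TPM, CDC37 was at 401 ± 8.6 with NC and 315 ± 7.1 with shCKAP2L (SD, n = 3 each). HSP90AB1 rose in the same RKO libraries.

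The HSP70 exchange factors and regulators were nearly all lower in RKO: 7 of 8, with 1 higher and a median log2 fold change of -0.225. Of all genes, 4.26% were lower and 16.4% higher in HCT116, and 42.1% and 26.4% in RKO. BAG4 fell by 0.49 ± 0.042 (SE; limma adjusted p = 6.14e-08), BAG5 by 0.33 ± 0.035, STUB1, the ubiquitin ligase CHIP that tags HSP70 clients, by 0.31 ± 0.0355, and BAG6 by 0.20 ± 0.027. In HCT116, 2 of 8 were lower and none higher: STUB1 (-0.25 ± 0.044, SE; limma adjusted p = 0.00123) and HSPBP1, an HSP70 exchange factor (-0.16 ± 0.0515, adjusted p = 0.0397). STUB1 was thus lower with CKAP2L overexpression, at 79.5 ± 2.5 and 66.5 ± 3.7 TPM (SD, n = 3 each), and lower with its knockdown, at 107 ± 6.3 and 86.2 ± 0.69 TPM.

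Beside 4.26% lower and 16.4% higher among all genes in HCT116, 1 of 13 J-domain genes was lower there and none higher. It was DNAJA1, a partner of HSPA8, at 110 ± 1.6 TPM with vector and 97.7 ± 1.1 with CKAP2L (SD, n = 3 each; log2 fold change -0.17 ± 0.033, limma adjusted p = 0.003). In RKO, 3 were higher and 6 lower, near the shares of 26.4% and 42.1% over all genes. Under the other 3 scalings 5 were higher and 3 or 4 lower, and the median turned positive under quantile normalization. DNAJB2 (0.31 ± 0.032, SE) and DNAJC5 (0.26 ± 0.0315) were the clearest rises, and DNAJB4 (-0.30 ± 0.041) and DNAJC8 (-0.17 ± 0.024) the clearest falls by limma. DNAJB4 is a close relative of DNAJB1, which fell in the same libraries. Of the other HSP70 and HSP110 genes, none of 5 passed in HCT116, and in RKO 3 of 4 were lower and 1 higher. In HCT116 1 was lower after median-of-ratios rescaling and after quantile normalization. In RKO quantile normalization left 2 lower and none higher. HSPA14 fell by 0.45 ± 0.038 on the log2 scale, HSPA4L by 0.18 ± 0.039 and HSPA4, like HSPH1 an HSP110, by 0.13 ± 0.025 (SE; limma adjusted p at most 0.000815). Under the main scaling HSPH1 and HSPA4 thus moved in opposite directions in RKO.

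Of the other small heat shock genes, 2 of 8 were tested in HCT116 and neither passed, and in RKO all 8 were below the filter of a mean of 1 TPM, so HSPB1 was the only small heat shock gene tested in RKO. HSPB8, a partner of BAG3, was at 10.4 ± 1.15 TPM in HCT116 vector and at 0.01 TPM in RKO NC. HSBP1, which binds HSF1 and limits its trimers, was lower in both lines, by 0.16 ± 0.042 in HCT116 and 0.17 ± 0.031 in RKO on the log2 scale (SE; limma adjusted p = 0.0155 and 0.000163). HSF2 did not pass in either line, at -0.024 and 0.036 (limma adjusted p = 0.762 and 0.439).

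Of the other heat-inducible genes in HCT116, 2 of 15 were higher and 5 lower (median -0.086), beside 16.4% and 4.26% of all genes. This list overlaps the others, so its calls are not separate from theirs. The 5 lower genes, DNAJA1, HSPE1, HSPD1, FKBP4 and STIP1, all stand in another list too, as do most of those lower in RKO. Under the other 3 scalings 1 was higher and 6 to 8 were lower, with medians from -0.145 to -0.134. The list in RKO had 4 of 14 higher and 9 lower (median -0.11), beside 26.4% and 42.1% of all genes. SERPINH1, the collagen chaperone HSP47, was higher with CKAP2L in HCT116 (46.1 ± 0.95 and 58.0 ± 0.75 TPM; SD, n = 3 each), as HSPE1 was lower (32.0 ± 2.0 and 25.7 ± 2.05 TPM). HSPD1, the mitochondrial HSP60 whose partner is HSPE1, was lower in both lines, by 0.12 ± 0.031 in HCT116 and 0.16 ± 0.021 in RKO on the log2 scale (SE; limma adjusted p = 0.0117 and 9.04e-06). HSPE1 was higher in RKO (0.15 ± 0.037, SE, limma adjusted p = 0.00245), so the pair moved apart there. In the mitochondrial list 2 of 10 were higher and 3 lower in HCT116, where HSPA9, the mitochondrial HSP70, rose by 0.29 ± 0.0275 (SE; limma adjusted p = 6.54e-06), and 4 were higher and 5 lower in RKO.

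Among the 14 genes of the chaperonin TRiC and prefoldin, which fold actin and tubulin, 1 was higher and 3 lower in HCT116. The shares of all genes there were 16.4% and 4.26%. In RKO 5 of the 14 were higher and 5 lower, beside 26.4% and 42.1% of all genes. Under the other 3 scalings 4 or 5 were lower in HCT116, and 6 or 7 were higher and 3 or 4 lower in RKO. CCT2, a TRiC subunit, stood out by size in RKO, at 331 ± 5.4 TPM with NC and 575 ± 7.3 with shCKAP2L (SD, n = 3 each; log2 fold change 0.80 ± 0.023, limma adjusted p = 6.32e-13). Its fellow subunit CCT8 fell there by 0.22 ± 0.023 and CCT6A rose by 0.15 ± 0.024. In HCT116 CCT2 (-0.14 ± 0.028), CCT3 (-0.15 ± 0.030) and TCP1 (-0.21 ± 0.029) were lower (SE; limma adjusted p at most 0.00437). The 1 higher there was the prefoldin gene PFDN2 (0.25 ± 0.035, SE, limma adjusted p = 0.000242). Of the chaperone genes of the endoplasmic reticulum, 10 of 13 were higher and 1 lower in HCT116 (median 0.20), and 11 of 13 lower and none higher in RKO (median -0.17). Under the other 3 scalings 9 were higher in HCT116, and 9 were lower and 1 higher in RKO. HSPA5, the HSP70 of that compartment, was at 698 ± 15 and 941 ± 12 TPM in HCT116 and at 999 ± 14 and 832 ± 9.9 TPM in RKO (SD, n = 3 each), while HSPA8 was lower with CKAP2L in HCT116 and did not pass in RKO.

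**Figure D4:**
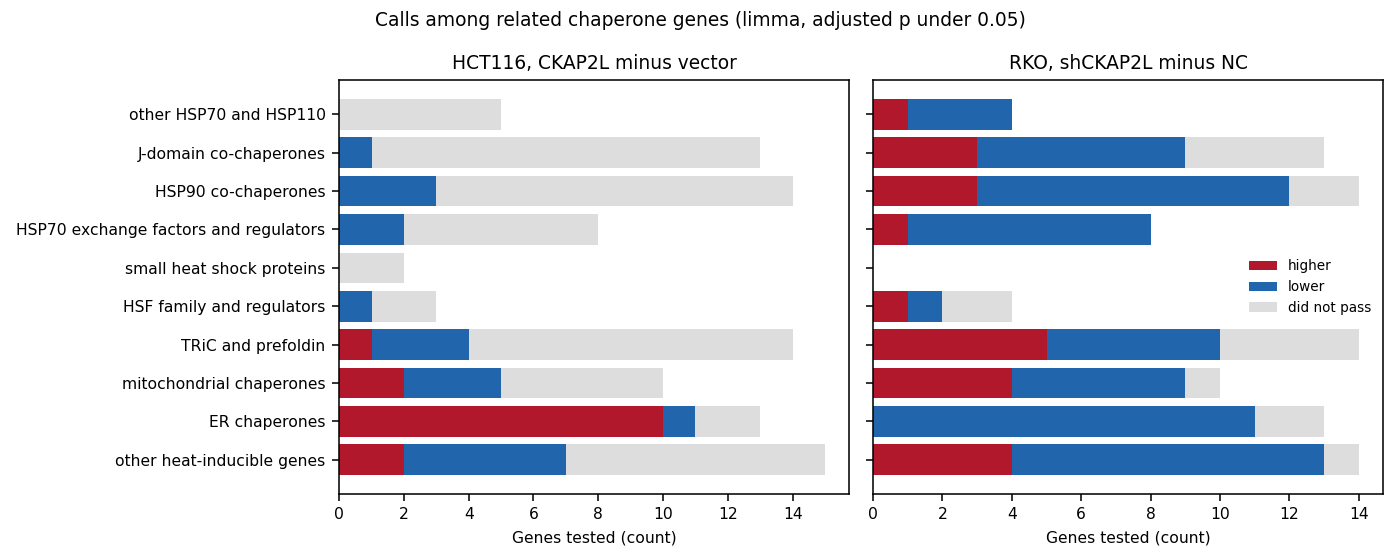
Number of genes tested in each of 10 lists of related chaperone genes (x axis) that were higher (red), lower (blue) or did not pass (grey) by limma at an adjusted p under 0.05, in HCT116 (left) and RKO (right). In the HSP70 exchange factor list 7 of 8 are lower in RKO, and in the ER list 10 of 13 are higher in HCT116 and 11 of 13 lower in RKO. Of all genes tested, 16.4% were higher and 4.26% lower in HCT116, and 26.4% and 42.1% in RKO. The lists share some genes.

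The genes most like the HSPA1A and HSPA1B sum across the 12 libraries, after centring log2(TPM + 1) on each line's mean, were ATP5F1B (r = 0.975), AHSA1 (r = 0.970) and NDUFA4 (r = 0.967) among 10977 genes. ATP5F1B and NDUFA4 encode proteins of the respiratory chain and ATP synthase. For HSP90AA1 they were SDHA (r = 0.980), CCT3 (r = 0.979) and NDRG1 (r = 0.972). The 12 points form 4 groups with shared library totals, so these values describe mainly how the group means lie.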

How the data were processed

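The authors deposited 1 TPM table per line, each with 20263 Ensembl genes and 6 library columns. Tools named in the submitters' processing notes are HISAT2 2.0, Trimmomatic 0.36, FastQC 0.11.2 and bedtools 2.26.0, with build GRCh38; counting tool, annotation and strand: not given in the sources used here. Per the labels' protocols, Trizol RNA was DNase-treated and made into mRNA libraries. Since TPM keeps no depth, depth is unknown and counting intervals were not computed. Groups follow the titles, although 2 RKO shCKAP2L libraries (replicates 2 and 3) have another symbol in their genotype label. Separate cultures are not stated for the replicates: p-values reflect the spread between libraries alone, possibly technical. The labels give no batch.

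Gene names were matched for 20148 identifiers in a name table and for 76 in GENCODE release 29. Values were analysed per line as log2(TPM + 1) for genes with a mean of at least 1 TPM, in R 4.3.3 with limma 3.58.1 (two-sided, trended prior variance, Benjamini-Hochberg). This scale understates changes of low genes. All 10 members passed the filter in both lines. The fit was tested on simulated data. Named were the members, CKAP2L, up to 4 genes per list and line by smallest adjusted p, and the 3 genes most like the HSPA1A and HSPA1B sum and HSP90AA1. Some genes named for 1 line, such as FKBP4 and HSPE1, were given for the other too. Members and lists were chosen with earlier results of these data known. Promoter sequences are RefSeq's (GRCh38.p14), and gene positions are from GENCODE 29. Alternatives were other pseudocounts, filters, scalings, variance priors, a joint fit, a replicate block, summed copies and leaving out each library.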

Additional observations from a re-analysis of the deposited data

Results flagged for a closer look

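The change toward more CKAP2L differed between the lines for 8 of the 10 genes by the joint limma fit (adjusted p under 0.05, beside 54.5% of all genes). On the log2 scale, HCT116 minus RKO, the differences were -0.43 for HSPA1A, -0.34 for HSPA1B, -0.30 for HSPA8, 0.26 for HSPH1, -0.26 for HSP90AA1, -0.31 for HSPB1, -0.25 for BAG3 and 0.18 for HSF1. Those of HSPA1B, HSPA8, HSPH1, HSP90AA1, HSPB1, BAG3 and HSF1 passed in all 22 alternatives, and that of HSPA1A in 20 of 21 (not with no filter on low values, adjusted p = 0.0754). For HSP90AA1 and HSPB1 the sign toward more CKAP2L was the same in both lines and the sizes differed.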

How the results depend on the processing

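Of the member values under the alternatives, 534 kept direction and call, 24 lost the call, 9 gained it and 9 turned sign. In HCT116, 2082 genes were called higher and 543 lower; the counts were 954 and 220 with no filter, 1119 and 1203 after median-of-ratios rescaling, 1102 and 1131 after quantile normalization, 1158 and 959 without mitochondrial mRNAs, and 267 lower with an untrended prior. Leaving out single libraries gave 1183 to 2851 higher and 296 to 577 lower. Of members, 2 were called higher in HCT116, but 1 with no filter or quantile normalization, 0 after median-of-ratios rescaling, without mitochondrial mRNAs or with an untrended prior, and 0 to 3 without single libraries. The 3 falls (HSP90AA1, HSP90AB1, HSPA8) passed in all 18 alternatives. Sign turned, without a call unless given, for HCT116 HSF1 (-0.010, median-of-ratios), HCT116 BAG3 (0.032 without vector replicate 3; -0.037 to 0.032 without single libraries) and RKO HSPA8 (0.012, median-of-ratios; 0.0021, without mitochondrial mRNAs). It also turned for the HSP90AB1 difference between lines (-0.011, median-of-ratios; -0.082, quantile, adjusted p = 0.0246; -0.0090, without mitochondrial mRNAs; -0.0030 to 0.012 without single libraries). The causes were not tested. The median of all genes moved by under 0.1 in every scaling. HSPA1A gave no value in HCT116 at a mean of at least 5 TPM. With a replicate block, 1761 genes were higher and 439 lower in HCT116 and 3024 and 4837 in RKO, and no member's call changed. Same-numbered libraries did not deviate together (r from -0.088 to 0.049). This gave no sign of pairing by number, but 3 libraries per group cannot exclude it. TPM gives no depth, so how far counting error limits low genes such as HSPA1A is unknown.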
